A study of Homo sapiens with 2 samples.

Results

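The 63 genes described here encode the core of Wnt signalling: every protein-coding gene whose symbol is WNT, FZD, DVL, DKK or SFRP followed by a digit, and 23 named receptors, destruction complex members, nuclear factors and feedback regulators. They were chosen by symbol from the 20037 protein-coding genes of the RefSeq table for GRCh38 on chromosomes 1 to 22, X and Y. For each gene the presence of a WSTF peak summit inside it or within 1 kb of it was read from a list of 2697 summits. WSTF, the product of BAZ1B, is a chromatin remodelling factor with a bromodomain; its ATPase partner is SMARCA5. The cells were SW620, an established colorectal adenocarcinoma line. The series holds 2 samples, titled SW620-IP and SW620, and 1 list that the labels tie to neither of them. The series title names WSTF knockdown and its design text WSTF overexpression, so the WSTF level of these cells was not settled. The design text gives an anti-WSTF antibody and input DNA as the control.

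Wnt ligands bind Frizzled receptors together with the co-receptors LRP5 or LRP6, and Dishevelled proteins pass the signal on. Without ligand, a complex of APC, AXIN and GSK3 marks beta-catenin for destruction. With ligand, beta-catenin accumulates, enters the nucleus and joins TCF and LEF factors, where BCL9 and Pygopus proteins help it to activate transcription. In most colorectal tumours this pathway is switched on, usually through loss of APC.

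A summit lay in or within 1 kb of 7 of the 63 Wnt genes (11.1%, exact 95% interval 4.59 to 21.6), against 13.8% of all protein-coding genes. The share among the Wnt genes was thus close to the background, and the interval, which covers counting error only, includes it. The 7 were the Frizzled receptor genes FZD5 and FZD4, the co-receptor genes LRP6 and LRP5, the coactivator genes PYGO2 and BCL9, and DKK4, which encodes a secreted antagonist of LRP co-receptors. Each of them held a single summit. The other 56 genes, among them APC and CTNNB1, had none. The nearest of these, DVL2, lay 5.26 kb from a summit, so no gene sat close to the 1 kb limit: the farthest counted summit was 376 bp outside its gene. Counting only summits inside the gene left 4 Wnt genes, against 8.12% of all protein-coding genes. A flank of 500 bp gave 7 Wnt genes (all genes 13.3%), 5 kb again 7 (all genes 15.6%) and 10 kb 8 (all genes 17.8%). With scores of at least 2 there were 6 Wnt genes, against 12.8%, and with scores at or above the list median there were 2, against 7.32%. With each summit given only to the coding gene with the nearest end there were 6, against 11.6%.

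Of the 7 summits, those at PYGO2, FZD5 and FZD4 lay beside a gene start given in the RefSeq promoter table. The PYGO2 and FZD4 summits lay 257 and 93 bp downstream of their starts, so the bases around them are not shown. The 250 bases before each start (GRCh38.p14, 5′ to 3′ on the gene's strand) are shown, and only the FZD5 summit falls within them. The same stretch of FZD8, which encodes the closest relative of FZD5 and had no summit, is given beside them. Capitals mark matches to GGGCGG (the GC box) or CCAAT on either strand. The stretches are chr1:154961783-154962032 for PYGO2, chr2:207769907-207770156 for FZD5, chr11:86955396-86955645 for FZD4 and chr10:35642297-35642546 for FZD8, all on the minus strand.
PYGO2: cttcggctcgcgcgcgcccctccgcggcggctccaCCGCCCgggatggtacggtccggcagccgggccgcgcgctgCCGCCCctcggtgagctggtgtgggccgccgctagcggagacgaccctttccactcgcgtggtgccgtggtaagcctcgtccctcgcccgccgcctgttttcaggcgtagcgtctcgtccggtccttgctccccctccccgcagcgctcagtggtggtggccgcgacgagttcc
FZD5: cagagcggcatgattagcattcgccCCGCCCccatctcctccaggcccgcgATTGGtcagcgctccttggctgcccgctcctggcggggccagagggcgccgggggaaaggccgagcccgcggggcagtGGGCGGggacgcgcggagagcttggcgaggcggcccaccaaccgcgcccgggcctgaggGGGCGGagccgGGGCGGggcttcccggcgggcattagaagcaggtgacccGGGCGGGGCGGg
FZD4: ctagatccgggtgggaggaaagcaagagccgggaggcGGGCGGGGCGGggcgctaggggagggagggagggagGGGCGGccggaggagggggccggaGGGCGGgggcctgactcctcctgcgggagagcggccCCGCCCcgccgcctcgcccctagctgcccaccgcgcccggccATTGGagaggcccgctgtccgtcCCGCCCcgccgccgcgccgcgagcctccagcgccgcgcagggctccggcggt
FZD8: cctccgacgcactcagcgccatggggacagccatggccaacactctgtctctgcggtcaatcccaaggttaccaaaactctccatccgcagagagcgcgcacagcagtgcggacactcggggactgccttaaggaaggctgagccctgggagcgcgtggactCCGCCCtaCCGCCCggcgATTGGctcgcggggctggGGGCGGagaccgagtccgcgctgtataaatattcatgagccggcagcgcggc
The FZD5 and FZD4 stretches each held 6 GC boxes, some overlapping, and 1 CCAAT match. PYGO2 had 2 GC boxes and no CCAAT. FZD8 had 3 GC boxes and 1 CCAAT match. The FZD5 summit itself fell in this stretch, and the 21 bases centred on it (chr2:207770002-207770022, minus strand, summit base in capitals) follow.
FZD5 summit: gggacgcgcgGagagcttggc
This base is 106 bp upstream of the start, and the nearest GC box on its upstream side spans positions -121 to -116.

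Among the receptor genes, 2 of 10 Frizzled genes had a summit (20.0%, interval 2.52 to 55.6). The 13.8% of all protein-coding genes lies inside that interval, so this count is not told apart from the background. FZD5, a receptor for canonical Wnt ligands in the gut (2: 207762598 to 207769906), had its summit at position 207770012 of chromosome 2, 106 bp upstream of the start. Its score was 3.72, read as the −log10 of a q-value, here q = 0.00019. FZD4, the receptor for norrin as well as Wnts (11: 86945679 to 86955395), had its summit at position 86955302 of chromosome 11, 93 bp downstream of the start, with a score of 2.61 (q = 0.0024). A long non-coding gene, FZD4-DT, begins 319 bp from the same summit. The other 8 Frizzled genes had their nearest summits between 82.6 kb (FZD6) and 1.98 Mb (FZD10) away. FZD9, on chromosome 7, lay 85.7 kb from its nearest summit, which was in BAZ1B, the gene of WSTF itself.

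Of the 4 other receptor genes, LRP6 and LRP5 had a summit (interval 6.76 to 93.2, which includes the 13.8% of all protein-coding genes) and LGR4 and LGR5 did not. LRP6 and LRP5 encode the paired co-receptors that LRP-binding DKK proteins block, but their summits differed in position. At LRP6 (12: 12116025 to 12267044) the summit lay at 12267190, 146 bp outside the higher-numbered end of the gene, with a score of 2.75 (q = 0.0018). At LRP5 (11: 68298412 to 68449275) it lay at 68380302, deep in the gene, 67.7 kb downstream of the start and 69.0 kb from the nearer end. The LRP5 score of 1.87 (q = 0.014) was the lowest of the 7, and 5.08% of the whole list scored lower. No other annotated gene lay within 1 kb of either summit. LGR5, an R-spondin receptor and marker of intestinal stem cells, was 169 kb from its nearest summit, and LGR4 was 5.11 Mb from its own. RNF43 and ZNRF3, ubiquitin ligases that remove Frizzled from the cell surface, had none (nearest at 100 and 211 kb). The interval for this 0 of 2 runs to 84.2% and also includes the 13.8%.

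Of the 10 genes of beta-catenin and nuclear factors, PYGO2 and BCL9 had a summit (20.0%, interval 2.52 to 55.6), and the 13.8% of all protein-coding genes is inside that interval. PYGO2, a PHD-finger coactivator (1: 154957026 to 154961782), had the highest score among the Wnt genes, 3.76 (q = 0.00017). Its summit at 154961525 lay 257 bp downstream of the start. The same summit was 13 bp from PYGO2-AS1, an antisense long non-coding gene, and 773 bp from SHC1, an adaptor of receptor tyrosine kinases. BCL9, the adaptor that links Pygopus to beta-catenin (1: 147541501 to 147626216), carried its summit at 147599879, inside the gene and 58.4 kb downstream of the start, with a score of 2.72 (q = 0.0019). Its paralogue BCL9L was 72.2 kb from the nearest summit. CTNNB1, the beta-catenin gene, was 1.34 Mb from its nearest summit, and TCF7L2, the main TCF factor of the intestine, 2.65 Mb. LEF1 was 13.6 Mb away, on a chromosome (4) where 6.88% of coding genes had a summit.

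No summit was found at the destruction complex (0 of 5 genes, interval to 52.2%) or Dishevelled genes (0 of 3, interval to 70.8%). Both intervals include the 13.8% of all protein-coding genes, so neither count is told apart from the background. APC was 2.70 Mb from its nearest summit and AXIN2, a feedback inhibitor and widely used Wnt target, 553 kb. GSK3B, GSK3A and AXIN1 lay 144, 154 and 58.2 kb from theirs. DVL2 came closest of all genes without a summit: 5.26 kb away, inside ACADVL, a fatty acid oxidation gene, a summit scored 4.0. DVL1 was 25.9 kb and DVL3 141 kb from a summit.

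The 19 Wnt ligand genes had no summit (interval to 17.6%, against 13.8% of all protein-coding genes, which is inside that interval). WNT5B, a ligand of the non-canonical branch, was closest at 22.4 kb, and WNT8B followed at 46.1 kb. WNT16 was farthest, at 4.46 Mb. Several ligand genes shared a nearest summit: WNT6 and WNT10A one at DNAJB2, WNT1 and WNT10B one at DDX23, and WNT3 and WNT9B one beside MYL4. WNT2 and WNT16, which are not neighbours, also shared one, beside CAPZA2. The distances of genes that share a nearest summit are not independent of each other.

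Among the 9 secreted inhibitor genes, DKK4 alone had a summit (11.1%, interval 0.281 to 48.2, against 13.8% of all protein-coding genes). It lay at position 42391698 of chromosome 8, 376 bp outside the gene (42374063 to 42391322), with a score of 2.97 (q = 0.0011). VDAC3, a mitochondrial outer membrane channel gene, was nearer, at 182 bp, so the summit could be counted for either. DKK1, DKK2, DKK3 and the 4 SFRP genes, which encode decoys for Wnt ligands, had none. NOTUM, an enzyme that inactivates Wnt proteins by removing their lipid, was 16.4 kb from a summit scored 10.6 that lay 20 bp outside ASPSCR1. NKD1, an inhibitor that binds Dishevelled, was 47.5 kb from a summit in NOD2.

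**Figure D1:**
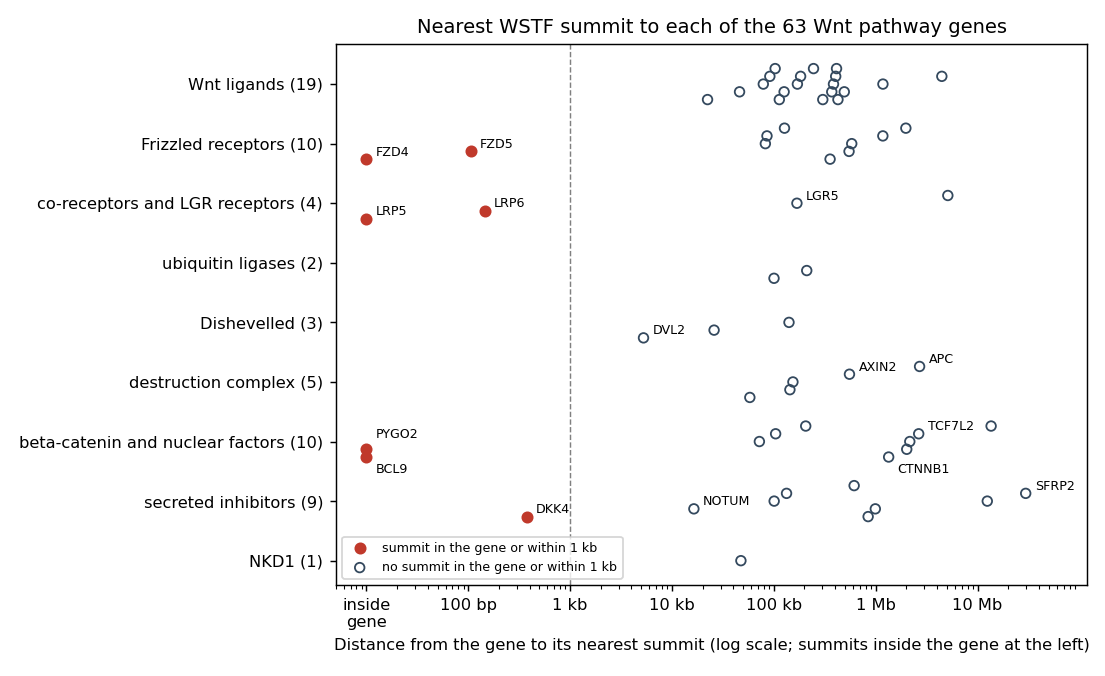
Distance from each of the 63 Wnt genes to its nearest summit (log axis), by role, with the number of genes in brackets. Filled points are the 7 genes with a summit inside or within 1 kb (dashed line), and open points the other 56, of which DVL2 is nearest at 5.26 kb and SFRP2 farthest at 29.7 Mb.

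The 56 genes without a summit were also compared by distance. Their median distance to a summit was 228 kb (quartiles 103 and 881 kb), against 265 kb (79.2 and 878 kb) for all 17209 protein-coding genes that had no summit on chromosomes with summits. More than 1 Mb separated 13 of the 56 (23.2%) from any summit, against 22.6% of those genes. Within 50 kb lay 6 of the 56 (10.7%), against 18.3%. Chromosomes differed in how many of their coding genes had a summit. On chromosome 17, where the share was 20.9%, none of 7 Wnt genes had one. On chromosome 11, with the same share, FZD4 and LRP5 of 6 did. Both chromosomes are examples, and these small counts were not tested. Other chromosomes also had none, such as 3, 7 and 10 with 5 Wnt genes each.

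**Figure D2:**
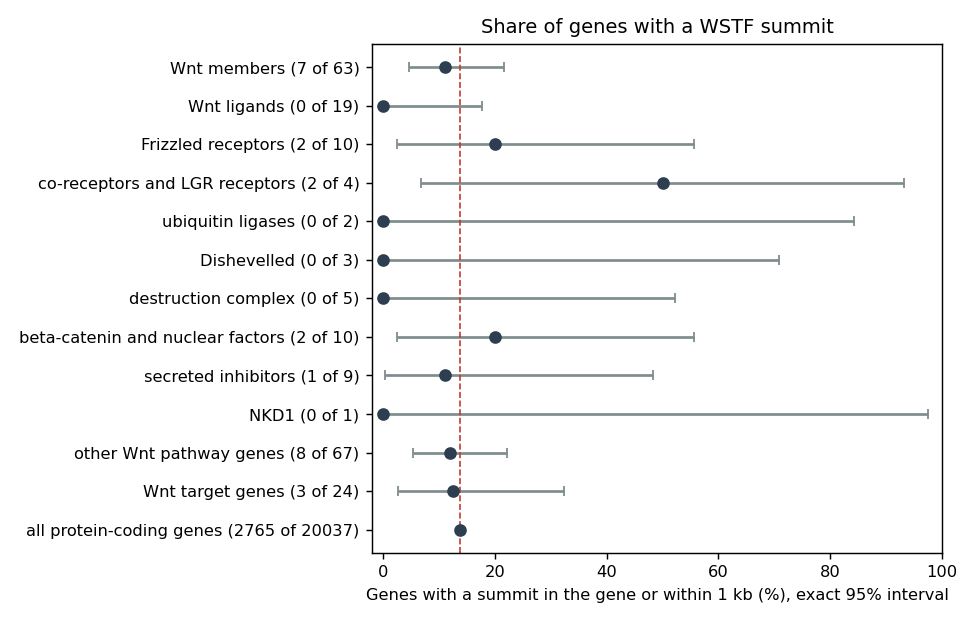
Share of genes with a summit inside or within 1 kb, with exact 95% intervals, for the Wnt genes (7 of 63), each role, other pathway genes, Wnt targets and all protein-coding genes (13.8%, dashed line). The interval of all 63 genes together, and of each role, contains the dashed line.

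Where a gene start was known, the summits were compared with it. The promoter table gave a start for 44 of the 63 genes, and 3 of these (6.82%) had a summit within 1 kb of it, against 12.9% of the 15843 protein-coding genes in that table. LRP6 and DKK4, whose summits lay 146 and 376 bp outside a gene end, had no start in that table and were not among the 44. Counting either end of all 63 genes, 5 had a summit within 1 kb (7.94%), against 11.6% of all protein-coding genes. Both shares rest on few genes (3 and 5), and their differences from the background were not tested. The FZD5 and FZD4 summits, at -106 and 93 bp from the start, fell between the quartiles of all such offsets (-188 and 110 bp, median -37 bp, 2105 pairs of gene and summit). The PYGO2 summit, at 257 bp, was farther downstream than the upper quartile.

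**Figure D3:**
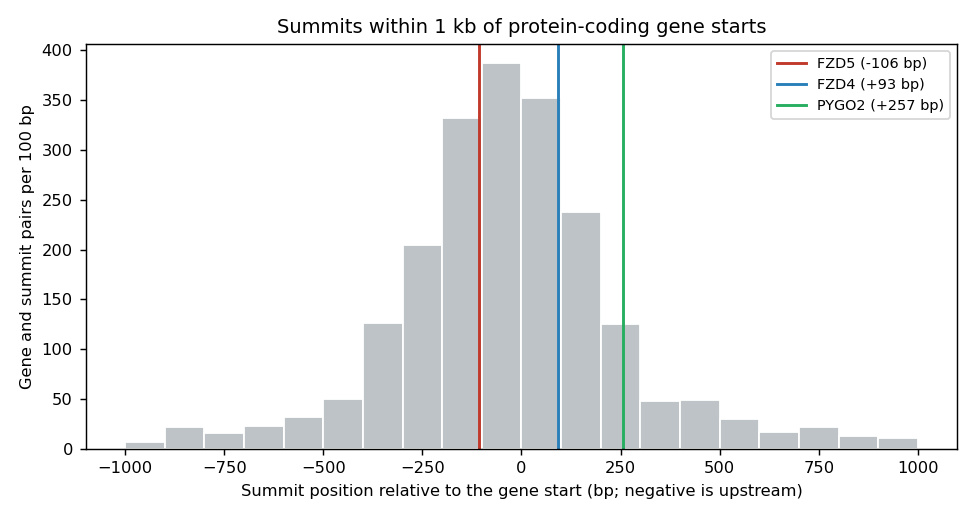
Positions of summits within 1 kb of a protein-coding gene start, in 100 bp bins (grey bars, 2105 pairs), with the FZD5, FZD4 and PYGO2 summits as lines at -106, 93 and 257 bp. FZD5 and FZD4 lie on either side of the start, within the peak of the distribution.

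The scores of the 7 summits at Wnt genes were modest. They ran from 1.87 at LRP5 to 3.76 at PYGO2 with a median of 2.75, against a median of 3.72 and an upper quartile of 5.04 for the whole list. PYGO2 ranked 1260 of 2697, and 84 summits in all carried the score of FZD5, which equals the list median. The remaining 5 were below the median: 29.8% of the list scored lower than DKK4, 24.2% lower than LRP6, 23.7% lower than BCL9 and 21.7% lower than FZD4. No summit at these genes reached the upper quartile. With only 7 summits, the difference from the whole list was not tested. The score belongs to the authors' peak caller and ranks summits within this list. It does not measure the amount of WSTF bound.

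**Figure D4:**
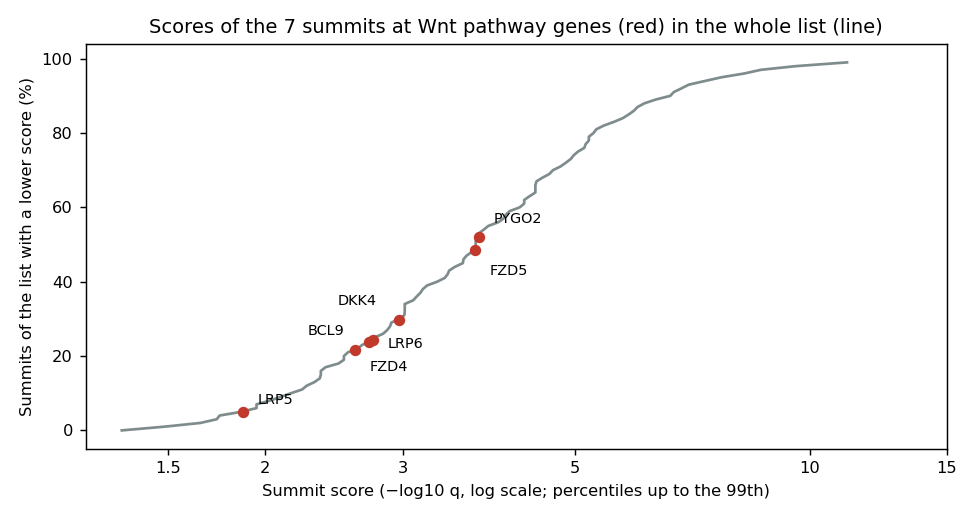
Score of each of the 7 summits at Wnt genes (red) on the cumulative distribution of all 2697 scores (line, drawn to the 99th percentile). PYGO2 at 3.76 and FZD5 at 3.72 lie at the middle of the list, and the other 5 lie in its lower part, from 1.87 to 2.97.

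The start windows of the Wnt genes with a summit within 1 kb of the start were rich in G and C. Over 300 bases, from 250 before to 50 after the start, G+C content was 74.7% at PYGO2, 77.0% at FZD5 and 79.7% at FZD4, with 47, 38 and 40 CpG dinucleotides. The FZD5 summit lay inside its window, while the PYGO2 and FZD4 summits, 257 and 93 bp downstream of the start, lay beyond theirs. The median was 66.3% and 25 CpG in the other 51 windows of Wnt genes. Several genes have more than 1 start, so the 44 genes gave 54 windows. Over all protein-coding genes it was 69.3% and 31 CpG in the 2569 windows with a summit within 1 kb of the start, against 61.3% and 19 in those without. Of all coding windows, 86.7% had a lower G+C content than the PYGO2 window. Windows at least as rich as it were also found without a summit, 15 of the other 51 windows of Wnt genes. They included LRP5 (86.7%), whose summit lay far inside the gene, WNT3A (86.0%), DVL1 (82.7%) and AXIN1 (78.0%). The CTNNB1 window was at 74.0%, and the FZD8 window at 67.0%.

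**Figure D5:**
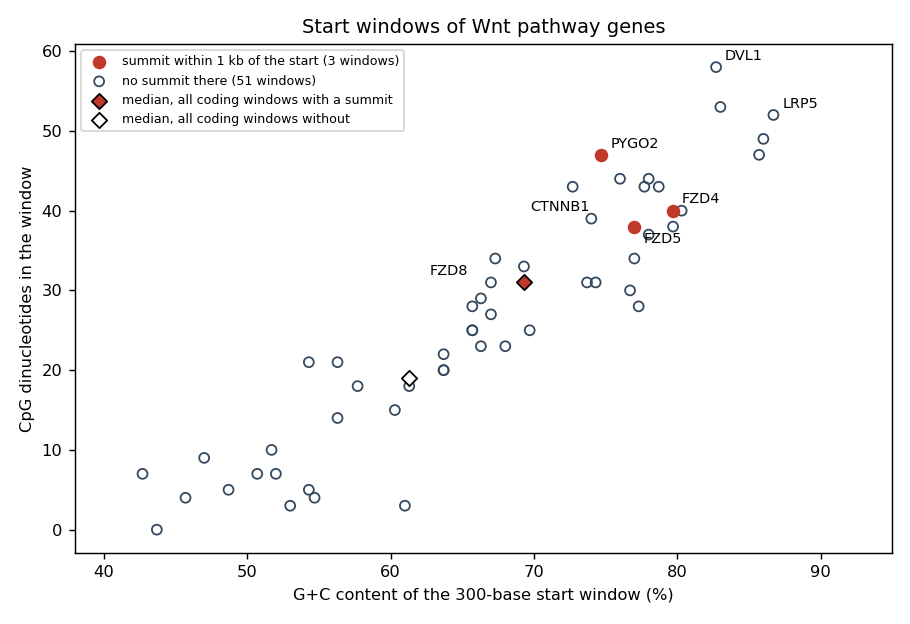
G+C content and CpG count of the 54 start windows of Wnt genes. The 3 windows with a summit within 1 kb of the start (filled) lie above the median of all such coding windows (red diamond, 69.3% and 31 CpG). Open points such as LRP5 and DVL1 lie higher still without a summit there.

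Short motifs were counted in the same windows, on both strands. Here a window with a summit is one whose start has a summit within 1 kb, inside the window or not. For TCF/LEF factors only the exact letters ATCAAAG were searched, and other forms of the site were not. ATCAAAG was in none of the 54 Wnt gene windows, in 0.973% of all windows with a summit and in 1.98% of all 22199 coding windows. This is too rare for its absence from 54 windows to be informative. GGGCGG was in 39 of 54 (72.2%), including PYGO2, FZD5 and FZD4, and in 79.9% of all windows with a summit, against 56.3% of all windows. CCAAT was in 38.9% of Wnt gene windows, in 35.4% of all windows with a summit and in 34.7% of all windows. The ETS core CCGGAAG was in 3 of 54 (5.56%), at DVL3, TCF7 and AXIN1, none of which had a summit. It was in 20.5% of all windows with a summit and 12.8% of all windows. The E-box CACGTG was in 3 of 54 (5.56%), at APC, TLE3 and DVL2, while it was in 12.3% of all windows with a summit and 8.34% of all windows. Only 3 of the 54 Wnt gene windows had a summit, too few for the absence of either motif from them to be informative. A match describes letters only, and motifs outside the 300 bases were not searched.

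In a list of 67 further pathway components, 8 genes had a summit (11.9%, interval 5.30 to 22.2), against 13.8% of all protein-coding genes, which is inside that interval. All 8 summits lay within 1 kb of a gene end, a share of 11.9% of the 67 genes, against 11.6% of all protein-coding genes. The highest score was 8.47 at MAPK8, the JNK1 kinase of the non-canonical branch, whose summit lay 257 bp upstream of the start. CREBBP, an acetyltransferase that binds beta-catenin, followed with 5.95 at 107 bp upstream, and CSNK2A1, a casein kinase 2 catalytic subunit, with 5.31 at 225 bp downstream. These 3 scores were above all 7 at the Wnt genes described first. CBY1, a beta-catenin antagonist, had 3.62, and its summit also lay within 1 kb of FAM227A. FBXW11, a ubiquitin ligase subunit that recognises phosphorylated beta-catenin, had 2.38. RHOA had 2.36 at a summit also within 1 kb of TCTA, the alpha-catenin gene CTNNA1 had 2.36, and the casein kinase 1 gene CSNK1D had 1.67.

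Of 24 Wnt target genes, 3 had summits (12.5%, interval 2.66 to 32.4), against 13.8% of all protein-coding genes, so the count was near the background. SP5, a transcription factor gene, held 2, at 1200 and 2063 bp downstream with scores of 3.44 and 3.76. MYC held 2 inside the gene, scored 3.37 and 5.68, at 1784 and 2531 bp from its nearer end. ETS2 held 1, scored 2.97, at 64 bp downstream. CCND1, ASCL2 and SOX9 were among the 21 with none.

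As a check on the cells, 2 of 14 colon epithelial marker genes had a summit (KLF5 and KRT19, 14.3%, interval 1.78 to 42.8) and 0 of 7 markers of other tissues did (interval to 41.0%). The 13.8% of all protein-coding genes lies inside both intervals. A summit does not measure expression, so this does not test the identity of the line. BAZ1B held 2 summits and SMARCA5 none. The sequencing depth behind the list is unknown, no replicate list was analysed, and the intervals cover counting error only. A gene without a summit is therefore not shown to lack WSTF.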

How the data were processed

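Chromatin from SW620 cells was immunoprecipitated and sequenced. The submitters' processing notes list Trimmomatic 0.39, Bowtie2 2.4.4, MACS2 2.2.7.1 and hg38. Per the design text, peaks were called against input. The deposited list gives 1 base and 1 score per peak. The authors' score was read as −log10 of a q-value, since the lowest deposited value, 1.31, is just above the 1.30 of q = 0.05. The highest value was 5479, far above the 99th percentile of 11.16. The sources used here do not say whether replicates were pooled.

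Summits were compared with RefSeq gene limits and start windows (GRCh38.p14) in Python 3.11.15 with pandas 2.3.3 and scipy 1.17.1. A gene counted where a summit lay inside it or within 1 kb. Intervals are exact Clopper-Pearson 95%. With 1 list no test between samples was possible, and no set test was run. The counting code was checked on positions placed at known distances from genes, which is no test of the counts against chance. The members, lists and motifs were chosen with earlier results of these data known. All 7 members with a summit are named, as are those without one within 50 kb and APC, CTNNB1, AXIN2, TCF7L2 and LGR5; other members without one were chosen after their values were seen, as were the GC-rich windows and the named targets. The lists of 67 components and 24 targets and the markers were written by hand, and TCF4 in the target list is the gene of that symbol.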

Additional observations from a re-analysis of the deposited data

How the results depend on the processing

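Of 20 alternatives, 12 left the value within its limit, which was 1.5 times for a count of genes or summits, 1 SD of the 7 scores for their median, and the narrow exact interval of 13.3 to 14.3% for the share of all genes. Of the 12, the median score with 1 value per gene could not change, because each gene held a single summit. Every alternative for the share of all genes moved it outside its interval. The 7 Wnt genes were 4 when only summits inside the gene counted (BCL9, FZD4, LRP5 and PYGO2) and 2 when only summits at or above the median score counted (FZD5 and PYGO2). Windows of 500 bp and 5 kb gave the same 7 genes, and 10 kb added DVL2. Requiring a score of at least 2 removed LRP5, and giving each summit to the coding gene with the nearest end removed DKK4 (6 genes in each case, against 12.8% and 11.6% of all protein-coding genes), and gene ends alone gave 5. The share of all protein-coding genes, 13.8% with a window of 1 kb, was 8.12% inside genes, 13.3% at 500 bp (just under the interval before rounding), 15.6% at 5 kb and 17.8% at 10 kb. It was 12.8% for scores of at least 2 and 7.32% for scores at or above the median. No paired analysis was possible because the 1 list is tied to neither sample and has no replicates. With the read depth unknown, which genes could have been called cannot be stated.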

Other observations

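G+C content and the presence of a summit were set side by side with a limit of 70% chosen after the values were seen. At or above it, 3 of 22 Wnt gene windows (13.6%) had a summit within 1 kb of the start, against 1199 of 5742 windows of all protein-coding genes (20.9%). Below it, 0 of 32 Wnt gene windows had one, against 8.32% of 16457. The lowest of the 3 Wnt gene windows with a summit was at 74.7% (PYGO2). The 0 below the limit therefore follows from its choice and is not informative. Windows of 1 gene are counted separately and can overlap. The difference was not tested.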
